A study of Mus musculus with 12 samples.

Results

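Genes that act early in the B lymphocyte lineage were followed in whole dorsal root ganglia (DRG) and in the hind paw of female and male mice. The 9 genes are Rag1, Rag2, Vpreb1, Vpreb3, Igll1, Cd79a, Cd79b, Ebf1 and Pax5, out of 22609 gene symbols in the count files. They were chosen by name with their normalized counts in these same DRG and paw libraries in view. Their own levels and differences are therefore given as a description, with no p.

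B lymphocytes arise in the bone marrow, where Ebf1 and Pax5 commit progenitors to the lineage and the Rag1 and Rag2 proteins together cut DNA to assemble immunoglobulin genes. Vpreb1 and Igll1 encode the surrogate light chain, which pairs with the first heavy chain in the pre-B cell receptor, and Cd79a and Cd79b encode the signalling chains that carry that receptor and the later B cell receptor to the surface. Rag1 and Rag2 are also used by developing T lymphocytes, and Ebf1 is also used outside the blood, in adipocytes, stroma and neurons.

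The RefSeq promoter table (GRCm38.p6) held 8 of the 9 genes, and Cd79b was not among them. The E-box CAGGTG, the core letters bound by E proteins such as Tcf3, was searched on both strands in the 250 bases before each start. It was present in 4 of the 8 genes, which have 9 promoters in the table and were counted where any of theirs matched, and in 17.2% of all 32851 promoters. A second E-box, CAGCTG, which reads the same on both strands and shares no position with a CAGGTG match, was present in 2 of the 8 genes and in 13% of all promoters. The 4 promoters with CAGGTG are shown because E proteins are known regulators of early B-lineage genes. Each is written 5′ to 3′ on the gene's strand up to the base before the start, with CAGGTG, or its reverse complement CACCTG, in capitals. A match is a description of the letters only.
Rag1 (chr2:101649533-101649782, minus strand): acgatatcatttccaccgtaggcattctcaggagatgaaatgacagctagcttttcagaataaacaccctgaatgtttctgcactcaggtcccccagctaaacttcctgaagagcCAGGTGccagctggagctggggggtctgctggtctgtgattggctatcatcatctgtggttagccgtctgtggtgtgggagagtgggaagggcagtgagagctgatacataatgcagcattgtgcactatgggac
Cd79a (chr7:24897247-24897496, plus strand): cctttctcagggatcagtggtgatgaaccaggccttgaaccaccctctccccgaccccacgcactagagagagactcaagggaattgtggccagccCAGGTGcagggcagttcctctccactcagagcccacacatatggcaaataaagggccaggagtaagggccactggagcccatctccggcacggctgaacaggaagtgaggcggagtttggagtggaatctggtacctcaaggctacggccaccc
Vpreb1 (chr16:16869256-16869505, minus strand): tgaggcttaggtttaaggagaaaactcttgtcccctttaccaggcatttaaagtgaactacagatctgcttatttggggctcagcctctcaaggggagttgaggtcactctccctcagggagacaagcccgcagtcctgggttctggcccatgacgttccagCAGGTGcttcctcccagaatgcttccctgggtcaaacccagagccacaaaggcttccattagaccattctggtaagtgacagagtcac
Igll1 (chr16:16863986-16864235, minus strand): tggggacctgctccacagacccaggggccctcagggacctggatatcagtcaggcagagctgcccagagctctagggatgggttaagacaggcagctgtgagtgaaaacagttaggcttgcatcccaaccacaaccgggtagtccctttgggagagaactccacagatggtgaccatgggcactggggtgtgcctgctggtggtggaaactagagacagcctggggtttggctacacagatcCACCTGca
The match began 135 bases before the start in Rag1, 154 in Cd79a, 88 in Vpreb1 and 8 in Igll1. In Igll1 it lay on the other strand.

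The study asked how sensory ganglia and their target tissue differ between the sexes. RNA was sequenced from whole DRG and hind paw of C57BL/6J mice, with 3 female and 3 male libraries for each tissue, 12 in all. Per the labels, the mice in each of the 4 groups were 8 to 14 weeks old and had 20 µl of saline injected into the paw, while the study's methods describe naive mice of 8 to 12 weeks, with females in estrus, ganglia of both sides taken after perfusion, and paw punches of epidermis and dermis with some fat. The labels name a stranded kit with rRNA depletion and the methods an oligo-dT kit, so which RNA was selected is not settled here. Gene reads per library ranged from 6866545 to 13470783. Hind paw male 2 was the shallowest, with 13.6% of its listed reads on genes against 23.8% to 28.1% in the other 11 libraries.

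Skin markers set the tissues apart. The 14 skin genes found in the files, led by Krt10, summed to between 64296 and 88087 CPM (reads on a gene over all reads on genes, times 1e6) in the paw and to between 43.7 and 134 CPM in DRG. A pair of DRG libraries stood apart. DRG male 1 had 2206 CPM of the 10 skeletal muscle genes, led by Myh4, against 104 to 596 CPM in the other 5 DRG libraries. DRG female 1 had 852 CPM of the 15 adipocyte and stroma genes against 543 to 587 CPM in the other 5, and 14.2 CPM of the 15 T cell genes against 3.94 to 5.12. The sex difference of Rag1 and the number of network genes at a low p in DRG are given below with and without these libraries.

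Rag1 (chr2:101478439-101489658, mm9, minus strand) was the member of the recombinase pair with more reads. Its normalized count, the reads divided by the library's size factor, was 47.0, 25.7 and 28.2 in the female DRG libraries 1 to 3 and 8.18, 22.6 and 6.67 in the male ones. In the paw it was 0, 1.80 and 0.983 in females and 5.64, 0 and 1.75 in males. Each DRG library lay above each paw library, and each female DRG library above each male one. Over the 6 libraries of a tissue, 140 reads were counted on Rag1 in DRG and 12 in the paw. Per read counted on genes, the DRG level was 11.9 times the paw level, with an exact 95% counting interval of 6.59 to 23.5. Of the 12 paw reads, 7 came from hind paw male 1, so this ratio depends largely on that library. In bulk tissue, fewer cells of a type and less RNA per cell cannot be told apart. Intervals of this kind cover counting error only.

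The Rag1 count is uncertain for another reason. All 6608 exon bases of Rag1 lie within B230118H07Rik, a longer gene on the same strand, and 80 of them lie in its exons. If reads were counted on exons, these 80 bases are shared, and if on whole genes, all 6608 are. Which was used, and how reads lying in both genes were assigned, is not given in the sources used here. B230118H07Rik had normalized counts of 200 in DRG female 1, 212 in female 2 and 191 in female 3. The values in DRG males 1 to 3 were 211, 238 and 206. The DRG sexes overlapped, and no DRG female library was above the highest male one. In the paw it was 93.1 ± 28.5 (SD, n = 6), so it too was higher in each DRG library than in each paw library. Its part in the Rag1 counts was not tested.

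Rag2 (chr2:101464875-101472685, plus strand) lies 5753 bases from Rag1 in the opposite orientation. It had 1, 4 and 5 reads in the female DRG libraries, 0, 3 and 1 in the male ones and 0 in the 6 paw libraries. The 14 DRG reads are given without a fold change. The 2 sexes overlapped in DRG. All 3423 exon bases of Rag2 also lie within B230118H07Rik, on the other strand, and the use of strand in counting is not given in the sources used here.

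The surrogate light chain genes were at the edge of detection. Vpreb1 (chr16:16868495-16870936, minus strand) had 2, 4 and 1 reads in the female DRG libraries and 3, 3 and 0 in the male ones. In the paw, 1 female and 1 male library had 1 read each. Of its 1113 exon bases, 108 are shared with exons of Top3b on the other strand. Pooled, 13 DRG reads stood against 2 paw reads, a ratio of 6.62 with a counting interval of 1.50 to 60.4.

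Igll1 (chr16:16860764-16864078, minus strand), the partner of Vpreb1 in the surrogate light chain, lies 4416 bases from it. It had 1, 3 and 0 reads in the female DRG libraries, 2, 2 and 0 in the male ones, 2, 4 and 2 in the female paw libraries and 4, 1 and 5 in the male ones. Igll1 was the member with more reads in the paw than in DRG. The pooled DRG level was 0.452 of the paw level, with an interval of 0.170 to 1.09. Vpreb3 (chr10:75405802-75412402, plus strand), which encodes a related protein of pre-B cells, had 0, 3 and 1 reads in female DRG, 0, 1 and 1 in male DRG, and a single read in the paw, in male 1. The ratio of 6 pooled reads to 1 was 6.11, with an interval of 0.741 to 281.

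The receptor's signalling chains were detected in every DRG library. Cd79b (chr11:106172655-106176076, minus strand) had normalized counts of 16.6, 20.5 and 10.5 in the female DRG libraries and 8.18, 23.8 and 14.5 in the male ones. In the paw it was 3.76, 0 and 1.97 in females and 1.61, 1.70 and 0.874 in males. The DRG libraries all lay above the paw libraries, and the sexes overlapped in both tissues. The pooled reads were 94 in DRG and 10 in the paw, a ratio of 9.57 with an interval of 4.98 to 20.6.

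Cd79a (chr7:25682400-25687216, plus strand), the other chain, had normalized counts of 7.83, 5.99 and 10.5 in female DRG and 4.09, 10.7 and 6.67 in male DRG. Its paw values were 1.88, 0 and 0.983 in females and 1.61, 1.70 and 1.75 in males. Like Cd79b it was higher in each DRG library than in each paw library, with overlap of the sexes in DRG. The pooled ratio, from 45 and 8 reads, was 5.73 with an interval of 2.67 to 14.1.

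Pax5 (chr4:44544017-44724318, minus strand), the transcription factor that holds cells in the B lineage, had 9, 21 and 6 reads in the female DRG libraries and 2, 7 and 5 in the male ones. In the paw it had a single read, in male 1. The DRG libraries lay above the paw libraries, and DRG female 3 lay below DRG male 2 after normalization, at 6.27 against 8.34. The pooled ratio of 50 reads to 1 was 50.9, and its interval of 8.73 to 2050 shows how little 1 read fixes the paw level.

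Ebf1 (chr11:44430819-44821593, plus strand) was the abundant member. Its normalized count was 929, 893 and 874 in the female DRG libraries, 1014, 915 and 903 in the male ones, 281, 257 and 264 in the female paw and 386, 324 and 318 in the male paw. The 12 libraries fell into a DRG and a paw group without overlap, and in the paw each male library was above each female one. The pooled ratio of DRG to paw was 3.05, with an interval of 2.89 to 3.21.

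The relatives of Ebf1 were present as well. In CPM per kilobase of exon (RPKM), Ebf1 was at 8.92 ± 0.462 (SD, n = 6) in DRG and Ebf3 at 19.7 ± 1.17. Ebf2 was at 5.76 ± 1.07 and Ebf4 at 4.43 ± 0.580 in DRG. In the paw, Ebf1 was at 2.90 ± 0.400, Ebf2 at 4.21 ± 0.456, Ebf3 at 3.13 ± 0.501 and Ebf4 at 0.364 ± 0.105. By these lengths Ebf3 was above Ebf1 in DRG, and Ebf2 and Ebf3 had higher means than Ebf1 in the paw. By normalized count, with no division by length, Ebf1 had the highest count of the family in each paw library. With the longest transcript in place of all exons, tried for Ebf1 but not for its relatives, its level was 14.5 RPKM in DRG and 4.74 in the paw.

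**Figure D1:**
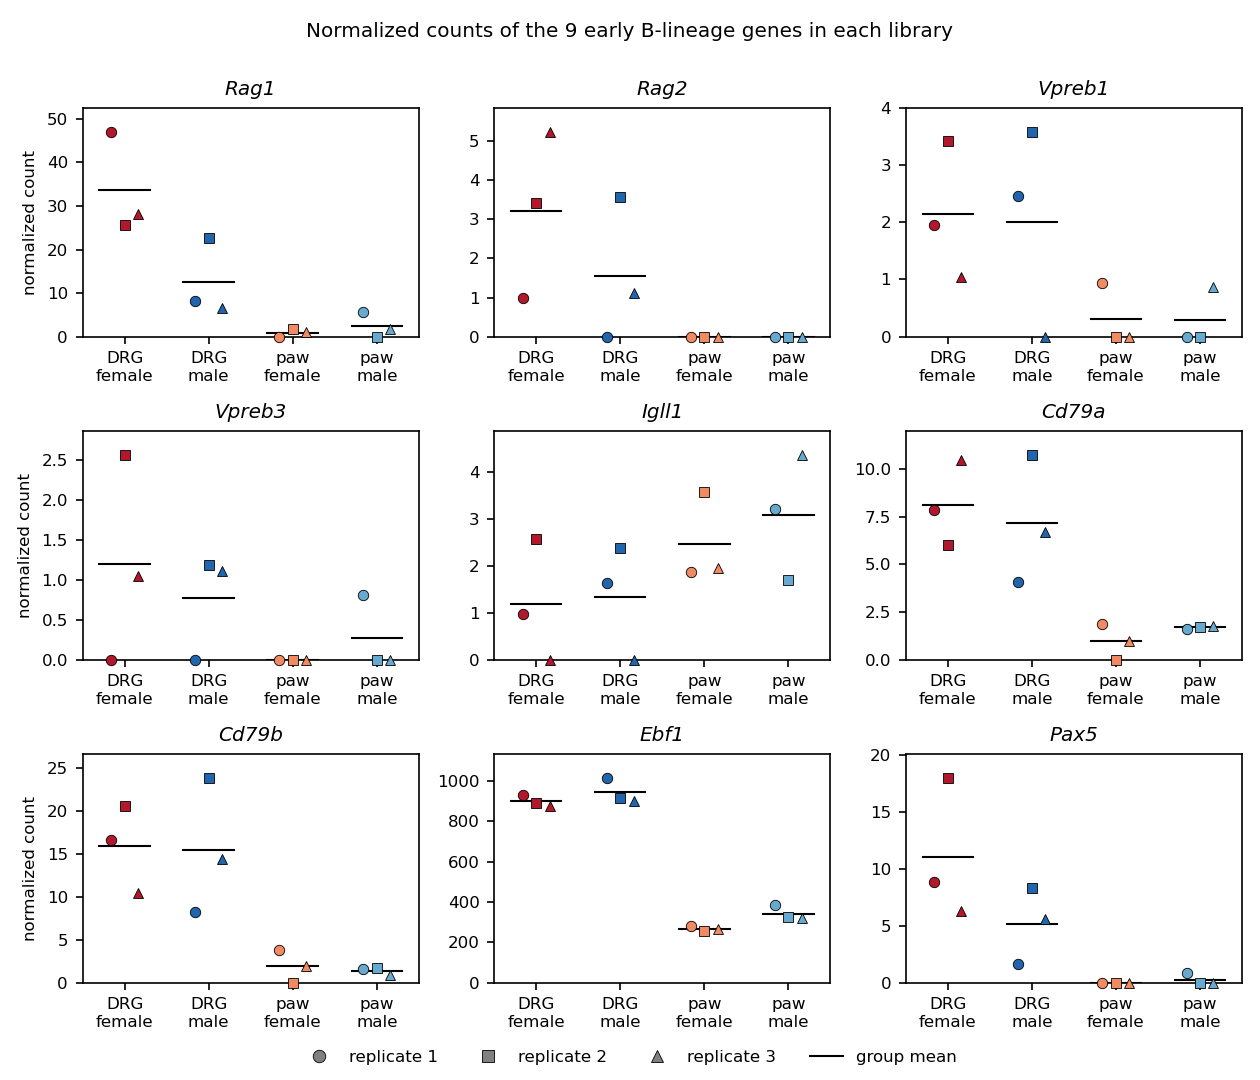
Normalized counts (vertical axis, reads divided by the size factor) of each of the 9 genes in the 12 libraries, by tissue and sex, with symbols for the replicates and a line at the group mean. Rag1, Cd79a, Cd79b, Ebf1 and Pax5 are higher in each DRG library than in each paw library, and the largest value is 1014 for Ebf1 and 2.57 for Vpreb3.

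Per length, the order in DRG was Ebf1, Cd79b, Cd79a, Rag1, Pax5, Vpreb1, Vpreb3, Rag2 and Igll1. After Ebf1, Cd79b was at 1.04 ± 0.398 RPKM (SD, n = 6) and Cd79a at 0.495 ± 0.168. Rag1 was at 0.334 ± 0.223 and Pax5 at 0.225 ± 0.154. Vpreb1, Vpreb3, Rag2 and Igll1 were at 0.176 ± 0.117, 0.108 ± 0.106, 0.0658 ± 0.0545 and 0.0551 ± 0.0492. Ebf1 stood clear of the others, while each later neighbour in this order overlapped the next in its range over the libraries. For Vpreb1 the worth of 3 reads was between 0.200 and 0.393 RPKM depending on the library, so the levels of these last genes are within what single reads decide.

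**Figure D2:**
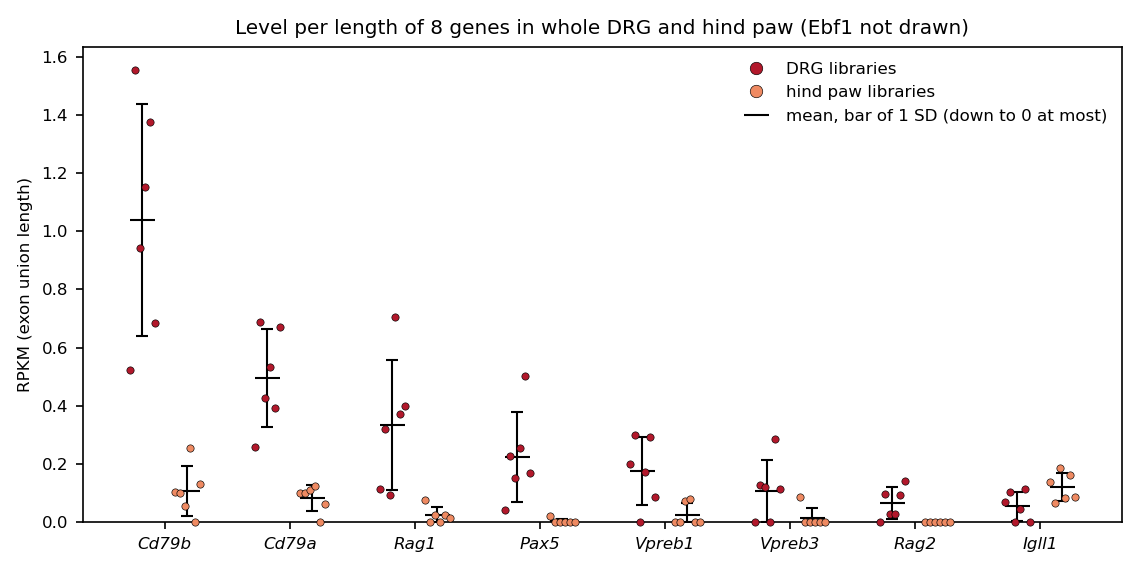
RPKM (vertical axis) of the 8 genes other than Ebf1 in the 6 DRG and 6 paw libraries, with the mean and 1 SD. Cd79b, at a mean of 1.04 in DRG, is the highest, and Igll1 is the gene whose paw mean of 0.120 is above its DRG mean of 0.0551.

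Summed, the 8 genes other than Ebf1 gave 8.35, 7.87 and 5.87 CPM in the female DRG libraries and 2.40, 7.12 and 3.32 CPM in the male ones. Without Rag1 the sums were 3.69, 5.41 and 3.23 CPM in females and 1.65, 5.01 and 2.70 CPM in males. The sexes overlapped in both sums. In the paw the 8 genes gave 0.526 to 0.821 CPM in females and 0.437 to 1.26 CPM in males.

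Set against the label of B precursors, the data were thin. Rag2, Vpreb1, Vpreb3 and Igll1 reached at most 5 reads in a library, and Igll1 had more reads in the paw than in DRG. Dntt, the polymerase that adds bases at V(D)J joins, had 4, 3 and 4 reads in female DRG, 0, 1 and 1 in male DRG and 1 read in the whole paw set. Vpreb2, which is close in sequence to Vpreb1, was listed at 0 in the 12 libraries. Reads aligned to more than 1 place, 37.3% to 55.5% of those listed, were not counted on genes, so this 0 says little and the Vpreb1 count may be low. Of the 14 mature B genes in the files, 3 were higher in each DRG library than in each paw library, beside 37% of all genes tested. That share is over genes that met the count minimum, while 4 of the 14 had a mean of at least 10 reads in DRG. The shares are therefore not compared. The sum of the 14, given below, overlapped between the tissues. Cr2, a complement receptor of mature B cells, had 8 to 13 reads in a DRG library and 0 in the paw libraries, and Ms4a1, which encodes CD20, had 6 to 31 in DRG and at most 1 in the paw. Cd37, of the same list, went the other way, at a normalized count of 11.5 to 40.1 in DRG and 44.3 to 84.5 in the paw. The set is called the 9 early B-lineage genes here, with no stage assigned to the cells.

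Marker lists of other cells also differed among the DRG libraries. Of 15 neutrophil granule genes, 12 had a mean of at least 10 reads in DRG. S100a9 was their most abundant gene at a normalized count of 495 ± 130 (SD, n = 6), and none was at 0 in DRG. Their sum was 242, 246 and 208 CPM in the female DRG libraries and 90.6, 174 and 206 CPM in the male ones. DRG male 3, at 206 CPM, lay just below DRG female 3, at 208 CPM. In the paw the sum was 12.8 to 49.3 CPM and Fcnb was at 0. Mpo, the myeloperoxidase of neutrophil precursors, had 75, 90 and 86 reads in female DRG, 23, 24 and 36 in male DRG and at most 1 in a paw library. The part of these cells in the differences of the 9 genes was not tested.

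Of 12 erythroid genes in the files, 8 had a mean of at least 10 reads in DRG, and Slc4a1, the red cell anion exchanger, was highest at 286 ± 110. The globin genes Hba-a1, Hba-a2, Hbb-b1 and Hbb-b2 were listed at 0 in the 12 libraries, in which reads aligned to more than 1 place were listed apart from genes. Rhag was also at 0 in the paw. The erythroid sum was 88.5, 88.5 and 63.3 CPM in female DRG and 20.4, 49.7 and 71.2 CPM in male DRG, against 4.12 to 8.49 CPM in the paw. Both lists were lowest in DRG male 1, the library with the lowest sum of the 8 genes and the highest muscle sum among DRG libraries.

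The 15 genes of dividing cells, led by Mki67, summed to 130, 97.6 and 92.2 CPM in female DRG and 44.6, 66.8 and 86.7 CPM in male DRG, with none at 0. In the paw they summed to between 507 and 728 CPM. Of the 13 bone genes in the files, 3 were higher in each DRG library than in each paw library. The same tally was 10 of the 15 neutrophil genes and 7 of the 12 erythroid genes. It was 37% of all genes tested, a share over genes that met the count minimum, which the lists did not require. The shares are therefore not compared. The bone sum was carried by Spp1 in DRG and is not read as a difference of the list, and Bglap2 and Mepe were at 0 in the paw.

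Of 14 mature B genes in the files, 4 had a mean of at least 10 reads in DRG, led by Ciita at 63.9 ± 40.2. Ciita is also used by other antigen-presenting cells. Their sum was 25.5, 12.3 and 11.7 CPM in female DRG, 8.78, 16.8 and 9.96 CPM in male DRG, and 11.1 to 21.6 CPM in the paw, where Cr2 and Fcrl5 were at 0. The 6 plasma cell genes in the files summed to between 84.6 and 115 CPM in DRG, led by Xbp1, and to between 580 and 774 CPM in the paw, led by Sdc1, which keratinocytes also use. Igj, the joining chain of secreted immunoglobulins, had 92, 11 and 18 reads in female DRG, 15, 5 and 51 in male DRG and at most 3 in a paw library.

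Of the 15 T cell genes, 1, Lck, had a mean of at least 10 reads in DRG. The T cell sum of 14.2 CPM in DRG female 1 came with the highest Rag1 value of the series, and Cd3e had 13 reads in that library against at most 2 in the other DRG libraries. In the paw the T cell sum was 7.57 to 10.4 CPM, led by Cd5, with Ptcra at 0. The 9 megakaryocyte genes summed to between 10.5 and 25.7 CPM in DRG, led by Itga2b, and to between 46.5 and 75.0 CPM in the paw, led by Pf4. The adipocyte and stroma list was led by Ebf3 in DRG and by Pdgfra in the paw, where it summed to between 747 and 915 CPM. The muscle sum was 3707 to 15949 CPM in the paw, led by Myh1, although the methods state that the punch did not touch muscle. The part of these cell types in the results was not tested.

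**Figure D3:**
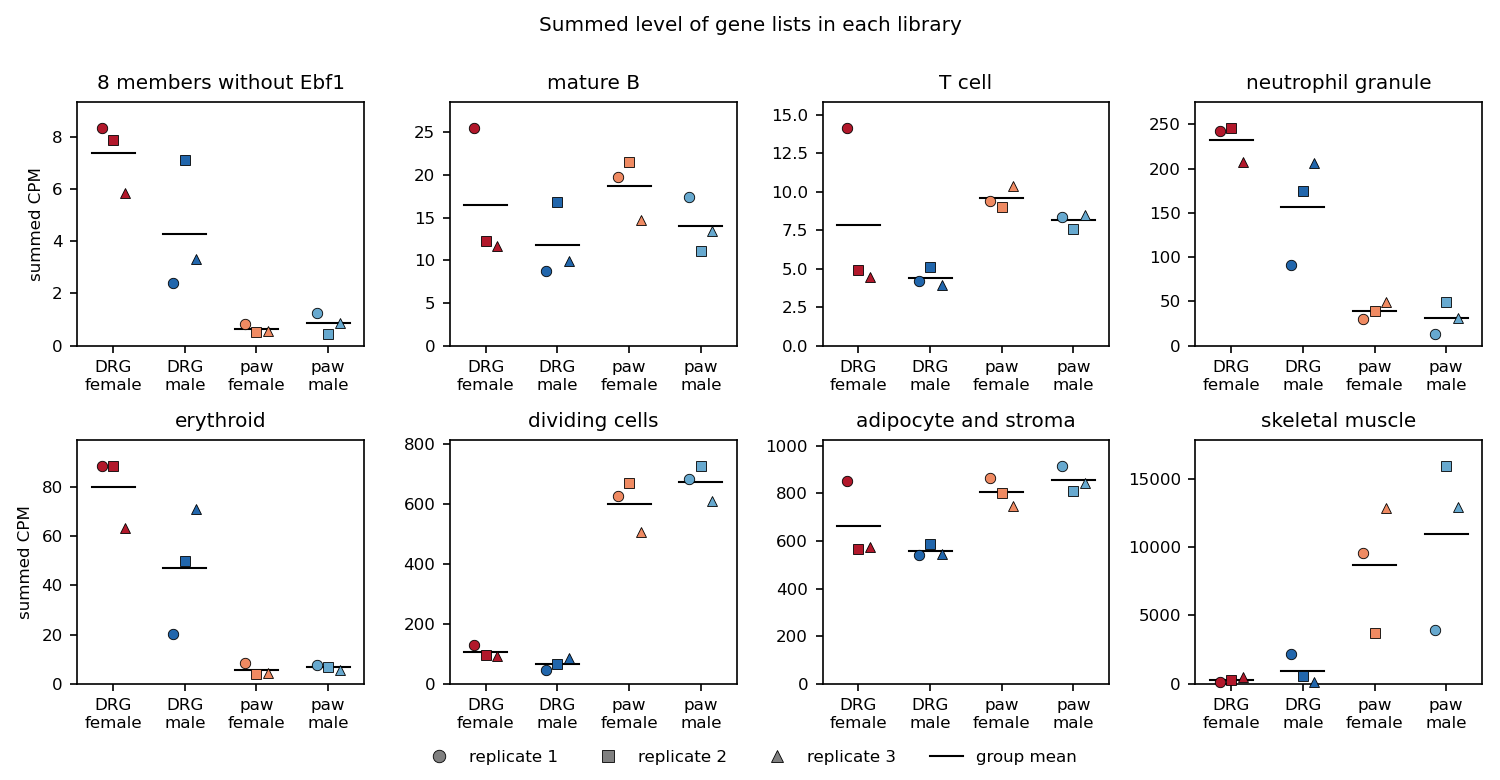
Summed CPM (vertical axis) of the 8 early B-lineage genes other than Ebf1 and of 7 marker lists in the 12 libraries, by tissue and sex, with symbols for the replicates and a line at the group mean. DRG male 1, at 20.4 CPM, is lowest in the erythroid list among DRG libraries and, at 2206 CPM, highest in muscle, and DRG female 1 is highest in the T cell list at 14.2 CPM.

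Between the sexes in DRG, 1 of the 9 genes, Rag1, had each female library above each male one, as had 4.88% of the 14456 genes tested. A test needed at least 10 reads in at least 3 libraries, and 3 of the 9 genes, Rag1, Cd79b and Ebf1, met this in DRG. Since the 9 genes were selected on these values, nothing is read from these counts. Female over male, the log2 fold change of Rag1 was 1.49 (standard error, SE, 0.46). It was 1.22 without DRG male 1, 1.16 without DRG female 1 and 2.17 without DRG male 2, the male library with the most Rag1. For Cd79b it was 0.13 (SE 0.43), and it turned to -0.23 without DRG male 1, to -0.11 without DRG female 2 and to 0.57 without DRG male 2. For Ebf1 it was -0.05 (SE 0.07), and with 1 library left out it lay between -0.09, without DRG female 1, and 0.00125, without DRG male 1, where its sign turned.

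The other genes of the network in which the 9 act were tested next: 70 genes in the files, in lists of recombination, receptor signalling, transcription factors, cytokines with their receptors, and surface markers. In DRG 62 of them were tested between the sexes. By edgeR's quasi-likelihood test 0 were called, with 11 at an unadjusted p below 0.05, and by DESeq2 0 were called, with 10. At an adjusted p below 0.05, 0.0484% of all genes tested were called by edgeR. These were 7 genes, and 1 without any of the DRG males 1, 2 or 3, and DESeq2 called 15. The share at an unadjusted p below 0.05 over all genes was 6.01%. All 11 were higher in females, and over all genes 485 were higher and 384 lower at that level. The count was 3 without DRG male 1, 5 without DRG female 1 and 7 without DRG female 2, and 6 with the replicate number as a block. Over the 62 genes, 43 had a higher estimate in females, with a median log2 fold change of 0.11, and over all 14456 genes 7298 had, with a median of 0.0015. No test of the list was made.

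The 6 network genes with the smallest p in DRG are described next, and none of them was called. Plcg2, a phospholipase below the B cell receptor, had normalized counts of 130, 98.4 and 101 in females and 72.8, 76.2 and 77.8 in males, a log2 change of 0.57 (SE 0.16). Ikzf1, the zinc finger factor Ikaros, had 137, 113 and 107 in females and 58.9, 88.1 and 89.0 in males, a log2 change of 0.63 (SE 0.19). In both genes each female library was above each male one, as in 4.88% of the 14456 genes tested. Genes picked by a small p are favoured to separate in this way, so nothing is read from it in these 6 genes. Pou2af1, a coactivator of octamer-binding factors in B cells, had 23.5, 24.0 and 22.0 in females and 5.73, 17.9 and 11.1 in males, a log2 change of 1.08 (SE 0.38), and likewise did not overlap.

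Myb, a factor of blood progenitors, had normalized counts of 39.1, 43.6 and 53.3 in females and 13.9, 22.6 and 36.7 in males, again with no overlap. Foxo1, which acts upstream of Rag1 in B precursors, had 902, 1014 and 932 in females and 766, 905 and 836 in males, and DRG female 1 lay just below DRG male 2. Irf8 had 146, 60.7 and 56.5 in females and 32.7, 41.7 and 60.1 in males, with its highest value in DRG female 1 and an overlap of the sexes. The log2 fold changes were 0.94 for Myb, 0.21 for Foxo1 and 1.01 for Irf8, with standard errors of 0.33, 0.08 and 0.40. That of Irf8 fell to 0.41 without DRG female 1. The adjusted p of these 6 genes was 0.743 by edgeR, so none of these differences passed the threshold after adjustment over all genes tested. In 3 of the 6 genes the highest value was in DRG female 1.

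In the hind paw 1 of the 9 genes, Ebf1, passed the count minimum. Each male library was above each female one, as in 8.54% of the 14316 genes tested. Female over male, its log2 fold change was -0.35 (SE 0.11), and with 1 library left out it lay between -0.39, without hind paw male 3, and -0.26, without hind paw male 1. Of the network, 60 genes were tested, with 0 called by edgeR and 7 at an unadjusted p below 0.05, and 0 called by DESeq2 and 5 at that level. Over all genes 0.154% were called by edgeR, which is 22 genes, while DESeq2 called 210, and 9.74% had an unadjusted p below 0.05. With 1 library left out the edgeR calls were at most 8, and 1 without hind paw male 2. Of the 7 genes, 3 were higher in females and 4 in males, and the count was 4 without hind paw female 1. The median log2 fold change of the 60 genes was -0.03, beside -0.0057 over all genes.

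The sex effect of DRG was then set against that of the paw in 1 fit. No network gene was called: by edgeR 0 of 65 tested, with 6 at an unadjusted p below 0.05, and by DESeq2 0, with 8. In all 6 by edgeR the female over male change was higher in DRG, and over all genes 758 were higher and 458 lower at that level. The difference was above 0 in 46 of the 65 genes, with a median of 0.20. Over all 15666 genes it was above 0 in 8198, with a median of 0.013. The list was not tested as a set. Over all genes 0.0128% were called by edgeR, which is 2 genes, while DESeq2 called 36, and 7.76% had an unadjusted p below 0.05. The edgeR calls were 0 without hind paw female 1 or 3, DRG male 1 or 3, or DRG female 2 or 3. The difference in log2 fold change was 3.00 for Rag1 (SE 1.26), from the small paw counts given above, -0.35 for Cd79b (SE 1.09) and 0.29 for Ebf1 (SE 0.12). No statement that the sex effect of a network gene was particular to DRG can be made from these libraries.

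Between the tissues, 5 of the 9 genes had each DRG library above each paw library, beside 37% of the 15666 genes tested. The members were selected with these levels in view, and Rag1 and Cd79b passed the count minimum through their DRG libraries. The log2 fold changes, DRG over paw, were 3.49 for Rag1, 3.19 for Cd79b and 1.60 for Ebf1, with standard errors of 0.54, 0.48 and 0.06.

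The rest of the network split between the tissues. Of the 65 genes tested, 24 were higher in DRG and 29 higher in the paw at an adjusted p below 0.05, beside 43.1% and 42.6% of all genes. A gene that passes the count minimum in 1 tissue alone is favoured to differ, and 57 of the 65 passed it in each tissue. Of these 57, 19 were higher in DRG and 26 higher in the paw, beside 41.7% and 42.2% of all genes that passed it in each. Over the 65 genes the median log2 fold change was -0.12, beside 0.0025 over all genes. Among receptor signalling genes 5 were higher in DRG and 6 in the paw, and among transcription factors 4 and 7. Recombination genes gave 3 and 4, cytokines with their receptors 6 and 7, and surface markers 6 and 5.

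Among the genes with the largest difference toward DRG, Pou2af1 had 105 reads in DRG and 1 in the paw, a ratio of 107 with a counting interval of 18.8 to 4262. Cd22, an inhibitory co-receptor of B cells, had 85 and 2 reads, a ratio of 43.3 with an interval of 11.6 to 363. Spib, a transcription factor of B cells and plasmacytoid dendritic cells, was at a normalized count of 27.4 ± 13.3 (SD, n = 6) in DRG and 2.78 ± 1.98 in the paw. These 3 genes passed the count minimum through their DRG libraries alone, so no p is given for them. The intervals cover counting error only, and for genes picked by their difference they are not read as a test.

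Other genes of this group are also used by cells outside the B lineage. Mme, the membrane peptidase neprilysin, was at 1317 ± 191 in DRG and 146 ± 28.9 in the paw, a log2 fold change of 3.19. Flt3, a cytokine receptor of lymphoid progenitors, was at 237 ± 15.7 and 33.3 ± 9.25, a log2 fold change of 2.81. Pik3cd, a lipid kinase of leukocytes, had a log2 fold change of 2.32. The edgeR adjusted p of these 3 genes was between 3.08e-11 and 7.17e-10.

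Higher in the paw were Ly6d, Bcl11a, Blnk, Hmgb2, Bst1, Stat5a, Plcg2 and Myb. Ly6d, a marker of early lymphoid cells that stratified epithelia also express, was at a normalized count of 6353 ± 1080 in the paw and 8.02 ± 2.30 in DRG, with a log2 fold change of -9.66. Blnk, the adaptor below the B cell receptor, was at 216 ± 42.5 in the paw and 23.7 ± 4.27 in DRG, a log2 fold change of -3.17. Bcl11a, a transcription factor, was at 760 ± 109 in the paw and 65.5 ± 9.24 in DRG, a log2 fold change of -3.54. The other 5 had log2 fold changes between -2.74, for Hmgb2, and -1.86, for Myb, and the edgeR adjusted p was at most 5.37e-07 in the 6 genes other than Ly6d and Bst1, which passed the count minimum through the paw alone. The marker sum of skin differs between these tissues, as given above, and its part in the network's differences was not tested.

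**Figure D4:**
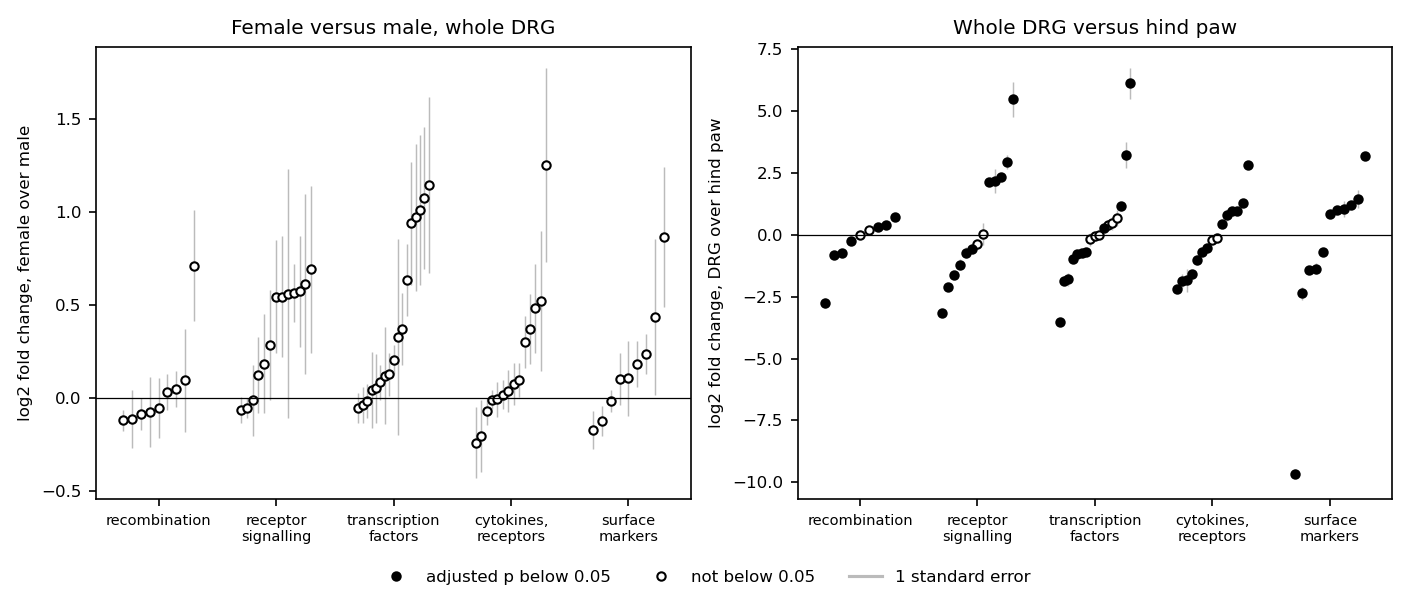
Log2 fold changes (vertical axes) of the tested network genes by list, with 1 standard error, female over male in DRG on the left and DRG over hind paw on the right, filled where the adjusted p was below 0.05. None of the 62 genes on the left is filled, and 24 of the 65 on the right are filled above 0 and 29 below. The topmost points on the right, Pou2af1 and Cd22, rest on 1 and 2 paw reads. Filled points on the right include genes that passed the count minimum in 1 tissue alone, which are favoured to differ.

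Likeness across the 6 DRG libraries was measured against the mean z-score of log2 CPM of Rag1 and Cd79b, the 2 members other than Ebf1 with a mean of at least 10 reads in DRG. These 2 were themselves loosely related, with a Pearson r of 0.43 over the 6 libraries. Among 14371 other genes, the most alike included Slc20a2, Col8a2, Cdc42, 6330407A03Rik, Lpin3, Tmpo, Fam105a, Cldn11 and Prss23, with r between 0.974 and 0.988 and Spearman's rho between 0.829 and 1. With 6 libraries, 197 genes had an r above 0.9. Slc20a2, a phosphate transporter, was the most alike, at a normalized count of 754 ± 43.9 (SD, n = 3) in female DRG and 703 ± 98.6 in male DRG. No p is given, and the values describe these 6 libraries only.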

How the data were processed

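The authors deposited raw read counts per gene for each library, made with bcl2fastq, TopHat2, HTSeq and DESeq on mm9 per the submitters' processing notes. The counting mode, the use of strand and the tool versions are not given in the sources used here. Every count file has rows for 22609 gene symbols and for 5 non-gene categories, which held 71.9% to 86.4% of its listed reads and were left out. Groups came from titles and source labels. The series names 3 males and 3 females, and the labels do not tie libraries to animals, so p-values measure the spread between these libraries. No 2 libraries of a group held the same counts.

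Counts were fitted with edgeR 4.0.16 (quasi-likelihood, median-of-ratios factors, R 4.3.3) for genes with at least 10 reads in at least 3 libraries, with Benjamini-Hochberg adjustment over all tested genes. The standard error is the log2 fold change divided by the root of the F statistic. The scripts were tested on simulated data. Normalized counts used DESeq2 1.42.0 size factors over the 12 libraries. RPKM used exon unions of the GENCODE mm9 annotation, in which 21679 of the 22609 symbols were matched, 52 of them by another symbol. The floor of 3 reads corresponds to between 0.223 and 0.437 CPM, depending on the library. Sequences came from RefSeq.

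The members and lists were chosen with earlier results of these data known. Named network genes were drawn from the 8 per direction with the largest change among those called, and the 6 of smallest p between the sexes in DRG. In the marker lists they were the most abundant gene per tissue and genes at 0. Dntt, Cr2, Ms4a1, Cd37, Mpo, Cd3e and Igj were named after their values were seen. Alternatives were DESeq2, TMM factors, no filter, all libraries in 1 fit, a replicate block, leaving out each library, and, added after seeing the data, the count minimum in each tissue.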

Additional observations from a re-analysis of the deposited data

Results flagged for a closer look

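In DRG, Plcg2, the phospholipase below the B cell receptor, was higher in each female than in each male library, as were 4.88% of genes tested. In the hind paw it was higher in each male than in each female library, as were 8.54% of genes tested. The gene was flagged from these same values, and the share of genes with both patterns was not counted. Its normalized counts in the paw were 341, 380 and 358 in females and 495, 419 and 395 in males. The female over male log2 fold change in DRG exceeded that in the paw by 0.82, with a standard error of 0.18. The edgeR adjusted p of this difference was 0.307, above the threshold, and it ranged from 0.0667, with DESeq2, to 0.566 over the 16 alternatives. Its log2 value lay between 0.68 and 0.90 over them.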

How the results depend on the processing

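The counts of network genes called between the sexes, in DRG, in the paw and in the difference of the 2, were 0 under each alternative run. The counts called between the tissues lay between 24 and 26 higher in DRG and between 27 and 31 higher in the paw, apart from 19 and 26 among genes that met the count minimum in each tissue, an alternative chosen after seeing the data. The log2 fold changes of the 6 genes named in DRG kept their direction and side of the threshold under the 11 alternatives run for them. Those of the 14 named between the tissues kept their direction under 16 alternatives, the count minimum in each tissue not among them. Pou2af1, Cd22, Spib, Ly6d and Bst1 do not meet that minimum, so their side of the threshold is not read. The other genes named between the tissues kept theirs.

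The number at an unadjusted p below 0.05 was less stable. Between the sexes in DRG it was 11, and 3 to 14 with 1 library left out. In the paw it was 7, and 4 to 9 with 1 library left out. For the difference of the sex effects it was 6, and 10 with no filter on low counts.

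Blocking on the replicate number, the DRG count fell from 11 to 6. The cause was not tested. The deviations of same-numbered female and male libraries correlated between -0.218 and -0.077 in DRG and between -0.359 and 0.265 in the paw, with 0 and 1 of 6 libraries best with their own number. Those of same-numbered DRG and paw libraries correlated between -0.046 and 0.159 in females, with 3 of 6 best with their own number, and between -0.301 and 0.001 in males, with 0 of 6. Whether the numbers pair the tissues in females is not settled by these values. With the block, the network genes called remained 0 between the sexes, and were 25 higher in DRG and 29 higher in the paw. Over all genes, the calls with the block fell from 7 to 5 in DRG and from 22 to 8 in the paw. Over all alternatives they lay between 1 and 15 in DRG, and in the paw between 1, without male 2, and 210, with DESeq2, with 92 when all libraries were in 1 fit.

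With 1 library left out, the log2 fold change of Rag1 lay between 1.16 and 2.17 between the sexes in DRG and between 3.15 and 4.12 between the tissues. That of Cd79b in DRG lay between -0.23 and 0.57. For the named network genes in DRG it lay between 0.41 and 1.28 for Irf8, 0.62 and 1.36 for Myb, 0.70 and 1.53 for Pou2af1, 0.44 and 0.73 for Ikzf1, 0.41 and 0.64 for Plcg2, and 0.14 and 0.27 for Foxo1. TMM factors shifted the median of all genes by less than 0.1. A median over the 9 genes was not run, since 3 of them passed the count minimum. Depth limits Rag2, Vpreb1, Vpreb3 and Igll1, at no more than 5 reads in a library.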

Other observations

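Of 13 bone genes, 3 were higher in each DRG library than in each hind paw library. The share over all genes tested was 37%, but the list was not limited to tested genes, so the shares are not compared. Ibsp, 1 of the 3, a matrix protein of bone, had 68, 66 and 96 reads in the female DRG libraries and 63, 58 and 54 in the male ones, and at most 3 in a paw library. The gene was chosen after its values were seen. Whether it moved with the 9 early B-lineage genes was not tested.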
